A study of Mus musculus with 7 samples.

Results

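Genes of follicular T cells, 9 of the 47729 counted, were followed in splenic Treg isolates of aged and young mice. The genes were taken by symbol: Il21, Cxcr5, Sostdc1, Ascl2, Sh2d1a, Slamf6, Il4, Icos and Pou2af1. All 9 were found in the count data, and 7 had enough reads to be tested. Spleens of wild-type mice gave CD4+CD25+ cells by magnetic bead isolation, and 3 libraries came from the aged group, 18 months old, and 4 from the young group, 8 weeks old. According to the methods the mice were male C57BL/6, no treatment is given for these samples, and the age of young mice differs from that in the labels. The labels call the libraries biological replicates and do not say how many mice gave each, so that p-values measure the spread between these libraries.

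Follicular helper T cells (Tfh) enter B cell follicles, where they give B cells the signals that sustain germinal centres. The receptor CXCR5 guides them there, ICOS keeps them responsive to B cells, the adaptor SAP with its SLAM receptors holds T and B cells together, and IL-21 and IL-4 act on the B cells. Follicular regulatory T cells (Tfr) share CXCR5, ICOS and BCL6 with Tfh, carry FOXP3, and restrain the same reaction.

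Gene counts per library were 10734234 to 13649310. Levels are CPM, the count of a gene scaled to its library's total on the TMM scale, on which 3 reads are 0.210 to 0.302 CPM. Of 13904 genes tested with edgeR, 2327 (16.7%) had an adjusted p under 0.05 and are referred to as called, 1362 higher in aged libraries (9.80%) and 965 lower (6.94%). The count was 1237 without young 4, 1262 without aged 3, 1270 without young 3 and 1315 without young 1. The CPM of the ages did not overlap for 29.9% of genes tested, 15.5% being higher in every aged library and 14.4% lower. Markers of other cells were present in all libraries. The summed CPM of 12 B cell markers was 1225 to 2254 in aged and 1727 to 2710 in young libraries, that of 8 plasma cell markers 888 to 1438 and 420.1 to 2134, and that of 8 neutrophil markers 600.5 to 3489 and 183 to 655. Treg markers summed to 2385 to 2994 CPM in aged and 1773 to 2916 CPM in young libraries, and T cell markers to 2505 to 2799 and 2270 to 2923. In such bulk samples fewer cells of a type and less RNA per cell cannot be told apart.

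Of the 9 genes, 4 were higher in aged libraries. Il21 and Sostdc1, which had almost no reads in young libraries, rose by 4.09 and 6.03 on the log2 scale, and Icos and Cxcr5 rose by 0.92 and 0.81. No member was called lower. Over all genes tested 16.7% were called. The same 4 were the members whose libraries did not overlap between the ages. Among all genes tested, 29.9% did not overlap, 15.5% being higher in every aged library. Il21 and Sostdc1 passed the filter on low counts only through the aged libraries, where they are high, and Il4 and Ascl2 did not pass it, so that the count over the 7 tested genes is a description. With a minimum of 10 counts per library 5 of the 9 genes remained, and Cxcr5, Icos and Sh2d1a were called. Of all 12221 genes tested in that fit, 1966 were called.

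**Figure D1:**
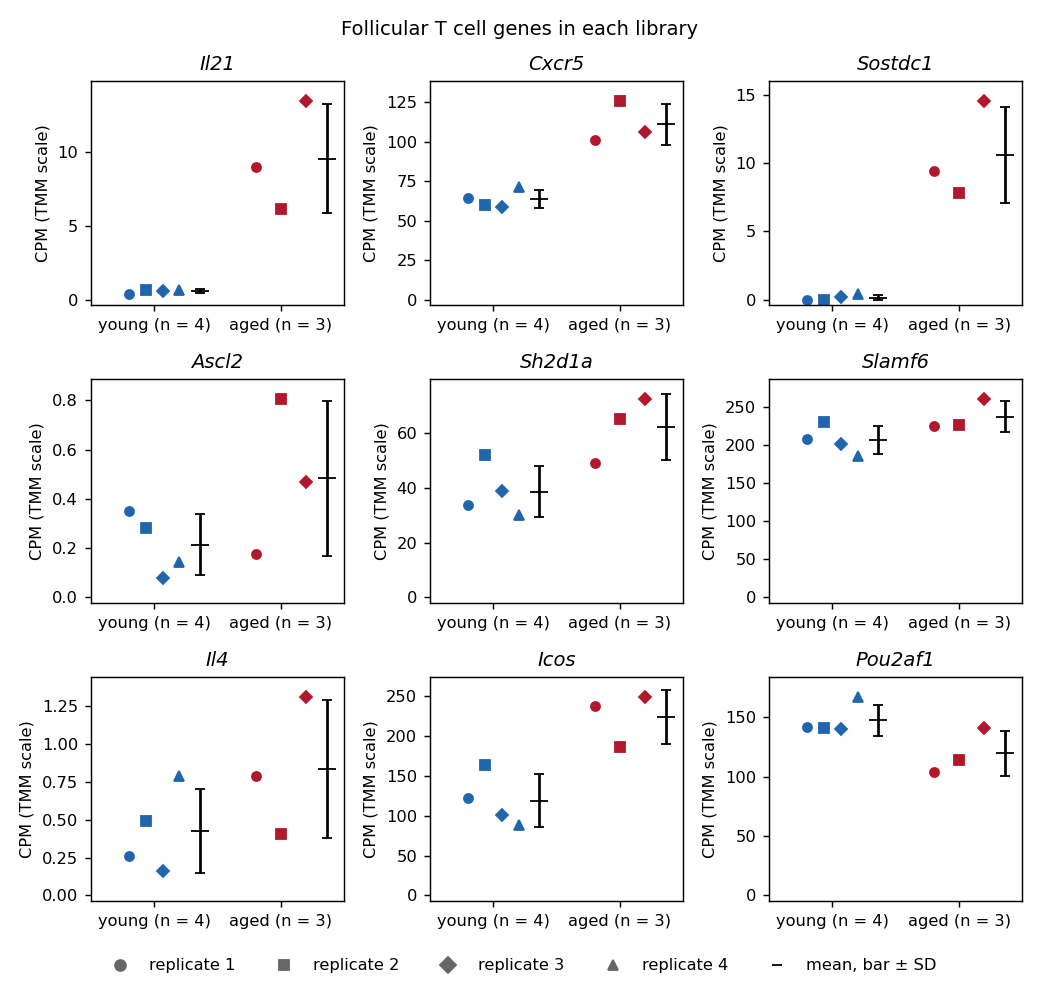
Level of each of the 9 genes in CPM (vertical axis, a separate scale for each gene) in the 3 aged and 4 young libraries, with a symbol for each library, and the mean with a bar of ± 1 SD beside them. For Il21, Cxcr5, Sostdc1 and Icos every aged point lies above every young one, while the points of the other 5 genes overlap.

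The upstream promoter bases of the 2 cytokine genes are shown because the one was called and the other was near the limit of detection in both ages. They run 5′ to 3′ on the strand of the gene, from 250 bases upstream to the base before the RefSeq start site on GRCm38.p6, Il21 at chr3:37232637-37232886 and Il4 at chr11:53618666-53618915, both on the minus strand. Capitals mark matches on either strand to the E-box CANNTG, the octamer ATGCAAAT, the NFAT core GGAAA and the AP-1 element TGANTCA.
Il21: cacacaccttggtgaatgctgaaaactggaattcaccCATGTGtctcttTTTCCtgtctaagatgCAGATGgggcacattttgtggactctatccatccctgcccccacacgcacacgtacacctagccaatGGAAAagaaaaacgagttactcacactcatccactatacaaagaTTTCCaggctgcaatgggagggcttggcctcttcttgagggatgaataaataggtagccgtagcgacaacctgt
Il4: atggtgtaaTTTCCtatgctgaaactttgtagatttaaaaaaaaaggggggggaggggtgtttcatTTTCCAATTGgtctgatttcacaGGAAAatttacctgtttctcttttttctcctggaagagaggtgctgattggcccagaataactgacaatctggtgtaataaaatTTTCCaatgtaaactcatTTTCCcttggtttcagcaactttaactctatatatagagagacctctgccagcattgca
The Il21 window held 2 E-boxes, 213 and 185 bases before the start site, and 3 NFAT cores, 201, 118 and 74 bases before it. The Il4 window held 5 NFAT cores and 1 E-box, whose first base is also the last of an NFAT core. NFAT is the calcium-dependent factor that T cell receptor signals bring into the nucleus, and E-boxes are read by bHLH proteins, the family of ASCL2. Of 32851 RefSeq windows of this length, 66.2% held an E-box, 55.6% an NFAT core, 6.75% an AP-1 element and 1.6% an octamer. Windows were on hand for 5 of the 9 genes, and those of Ascl2, Slamf6 and Pou2af1 held 2, 1 and 2 E-boxes. A further Il4 window, at chr11:53617339-53617588, held 3 E-boxes. No octamer or AP-1 match was found in any of them. A match is a stretch of letters and was not tested as a site of binding.

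Il21 encodes the cytokine that drives germinal centre B cells and plasma cells, and it is made mainly by Tfh. The gene lies at chr3:37222759-37232636 (GRCm38, minus strand). Its level was 8.999, 6.14 and 13.5 CPM in aged libraries 1 to 3 and 0.350, 0.631, 0.553 and 0.645 CPM in young libraries 1 to 4. The 3 aged libraries held 308 reads of the gene and the 4 young libraries 29. The lowest aged level was 9.52 times the highest young level. Aged libraries had a mean of 9.54 ± 3.696 CPM (SD, n = 3) and the mean of young libraries was 0.545 ± 0.136 CPM (SD, n = 4). The resulting log2 fold change was 4.09 with an SE of 0.343 (edgeR, adjusted p = 0.000529). The change was the 21st largest rise among all genes tested. Il21 passed the low-count filter only through the aged libraries, so that this rank is a description. As an antisense gene, Gm12534, shares 8.92% of its exon bases and the counts appear to use no strand, reads on those bases could not be told apart.

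Il4 encodes the other cytokine of Tfh, also made by Th2 cells, basophils and mast cells, which promotes class switching in B cells. It lies at chr11:53602982-53618669 (minus strand). Aged libraries held 9, 4 and 14 reads, or 0.786, 0.403 and 1.31 CPM, and young libraries 3, 7, 2 and 11 reads, or 0.262, 0.491, 0.158 and 0.788 CPM. The ages overlapped. The means, 0.833 ± 0.455 CPM (SD, n = 3) and 0.425 ± 0.279 CPM (SD, n = 4), had a log2 ratio of 0.97, and an exact two-sided permutation test gave p = 0.286. With 3 against 4 libraries that test cannot go below 0.0571, so it could not pass the threshold. The log2 ratio was 0.48 when aged 3 was left out and 1.46 when young 4 was. Without the filter on low counts edgeR gave Il4 an adjusted p of 0.423. The 8 basophil and mast cell markers summed to 18.5 to 36.4 CPM in aged and 11.3 to 40.9 CPM in young libraries. The aged sum was mostly Hdc, the histamine-forming enzyme, at 21.3 CPM in aged and 4.84 CPM in young libraries. The next most abundant markers had lower means in aged libraries, with Prss34 at 0.945 and 8.55 CPM, Cpa3 at 2.19 and 5.33 CPM, Mcpt8 at 0.737 and 3.03 CPM and Gata2 at 0.763 and 1.42 CPM. Of these 4 Cpa3 was called lower, and the part of such cells in the level of Il4 was not tested.

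Cxcr5 encodes the receptor for CXCL13, the chemokine of B cell follicles, and is carried by Tfh, Tfr and nearly all mature B cells. It lies at chr9:44511787-44561877 (minus strand). Its level was 101, 126 and 106 CPM in aged libraries and 64.6, 60.0, 58.4 and 71.4 CPM in young libraries, and the ages did not overlap. Mean levels were 111.2 ± 13.0 CPM (SD, n = 3) in the aged group and 63.6 ± 5.84 CPM (SD, n = 4) in the young one, a log2 fold change of 0.81 with an SE of 0.111 (edgeR, adjusted p = 0.00296). Of the 12 B cell markers none was called higher and 1 was called lower. As a share of their sum, chosen after the values were seen, Cxcr5 was 4.72% to 8.27% in aged and 2.63% to 3.47% in young libraries.

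Icos encodes the costimulatory receptor whose ligand ICOSL is carried by B cells, and it is high on activated T cells and Tregs. It lies at chr1:60977927-61000320 (plus strand). Its level was 238, 186 and 249 CPM in aged libraries and 122, 164, 101 and 88.0 CPM in young libraries. All aged libraries were higher than all young ones, with a lowest aged level 1.13 times the highest young level. The log2 fold change was 0.92 with an SE of 0.210 (edgeR, adjusted p = 0.0221), between means of 224 ± 33.8 CPM (SD, n = 3) and 119 ± 33.2 CPM (SD, n = 4). The call was lost when any of 4 libraries was left out, aged 3, young 1, young 3 or young 4, with adjusted p of 0.0523 to 0.0768. As a share of the Treg marker sum Icos was 7.79% to 9.42% in aged and 4.88% to 5.63% in young libraries, without overlap. An exact two-sided permutation test of this share gave p = 0.0571, the smallest p that 3 against 4 libraries can give, and the share was chosen after the values were seen.

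Sh2d1a encodes SAP, the adaptor that SLAM receptors need to hold T and B cells together and that Tfh help depends on. It lies at chrX:42502453-42529330 (plus strand). Its level was 48.8, 65.2 and 72.3 CPM in aged libraries and 33.7, 51.7, 38.8 and 30.2 CPM in young libraries. Young 2 was above aged 1, and the other young libraries were below all aged ones. Its log2 fold change was 0.69 with an SE of 0.201 and a 95% interval (5 degrees of freedom) of 0.17 to 1.20, and the adjusted p of 0.0502 (edgeR) missed the threshold. It passed in 8 of 16 alternative fits, with adjusted p from 0.0143 to 0.160 over all of them. Leaving out young 2 gave 0.86 (adjusted p = 0.0155) and leaving out aged 1 gave 0.83 (adjusted p = 0.0261). Leaving out any of the other 5 libraries gave 0.56 to 0.69, with adjusted p of 0.110 to 0.160, and no call. As a share of the T cell marker sum, again chosen after the values were seen, Sh2d1a was 1.95% to 2.59% in aged and 1.27% to 1.77% in young libraries. Of its exon bases 26.6% are shared with Tenm1 on the other strand, which had 9 reads in aged and 6 in young libraries.

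Slamf6 encodes the SLAM receptor Ly108, which binds itself between T and B cells and signals through SAP. It lies at chr1:171917515-171953170 (plus strand). Its level was 224, 226 and 260.1 CPM in aged libraries and 208, 229, 202 and 185 CPM in young libraries, with overlap. Its log2 fold change of 0.20 came with an SE of 0.110 and a 95% interval of -0.08 to 0.48 (edgeR, adjusted p = 0.244). Neither this receptor nor its adaptor SAP passed the test.

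Ascl2 encodes the bHLH factor that turns on Cxcr5 early in Tfh. It lies at chr7:142966829-142969264 (minus strand). It had 2, 8 and 5 reads in aged and 4, 4, 1 and 2 reads in young libraries, or 0.175 to 0.806 CPM and 0.0790 to 0.350 CPM. The log2 ratio of the means was 1.18 with overlapping ages (exact two-sided permutation test, p = 0.171, with the same smallest p of 0.0571). It was 0.59 without aged 2 and 1.58 without aged 1. Without the filter on low counts edgeR gave Ascl2 an adjusted p of 0.420.

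Pou2af1 encodes OCA-B, the coactivator of the octamer factors OCT1 and OCT2, which is abundant in B cells, required for germinal centres and also present in Tfh. It lies at chr9:51213708-51240080 (plus strand). Its level was 104, 114 and 141 CPM in aged libraries and 142, 141, 140 and 167 CPM in young libraries. Aged 3 lay among the young libraries, and aged 1 and 2 below them. Its log2 fold change of -0.30 had an SE of 0.128 and a 95% interval of -0.63 to 0.03 (edgeR, adjusted p = 0.144). It was the only member with a lower mean in aged libraries. As a share of the B cell marker sum it was 7.16% ± 1.20 (SD, n = 3) in aged and 6.93% ± 0.901 (SD, n = 4) in young libraries, with an exact two-sided permutation p of 0.743. This share was also chosen after the values were seen. Of the genes of its partners, Pou2f2 (OCT2) was at 135 CPM in both ages with a log2 fold change of -0.00 (adjusted p = 0.992), and Pou2f1 (OCT1) was at 77.6 CPM in aged and 63.3 CPM in young libraries (0.29, adjusted p = 0.253).

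**Figure D2:**
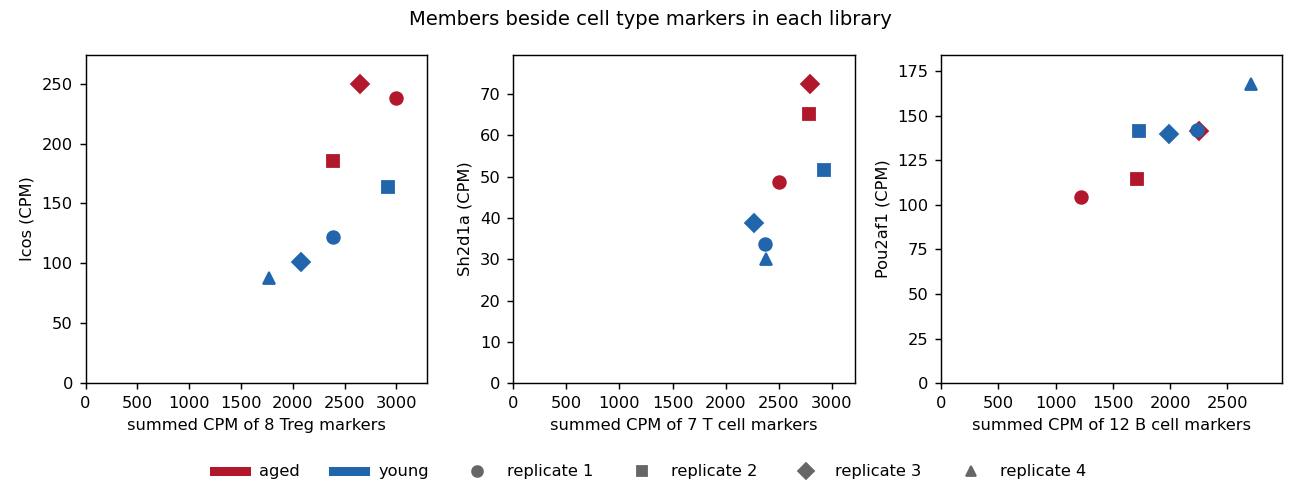
CPM of Icos, Sh2d1a and Pou2af1 (vertical axes) against the summed CPM of Treg, T cell and B cell markers (horizontal axes), with a point for each of 3 aged and 4 young libraries. Icos lies higher in aged libraries at a like Treg marker sum, as its shares of 7.79% to 9.42% and 4.88% to 5.63% state, while Pou2af1 is 7.16% of the B cell marker sum in aged and 6.93% in young libraries on average.

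Sostdc1 encodes a secreted antagonist of BMP and Wnt signals, reported in a subset of Tfh, where it favours the formation of Tfr. It lies at chr12:36314139-36318452 (plus strand) and shares no exon base with another gene. Aged libraries held 108, 78 and 156 reads, or 9.44, 7.86 and 14.6 CPM. Young libraries held 0, 0, 2 and 6 reads, or at most 0.430 CPM. The lowest aged level was 18.3 times the highest young level. The log2 fold change was 6.03 with an SE of 0.639 and a 95% interval of 4.39 to 7.68 (edgeR, adjusted p = 0.00121), the 5th largest rise among all genes tested. Sostdc1 also passed the low-count filter only through the aged libraries, so that its rank is a description. Of the 8 young reads 6 were in young 4. The fitted value was 7.40 without that library, and it was 5.61 to 7.40 over the libraries left out in turn.

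**Figure D3:**
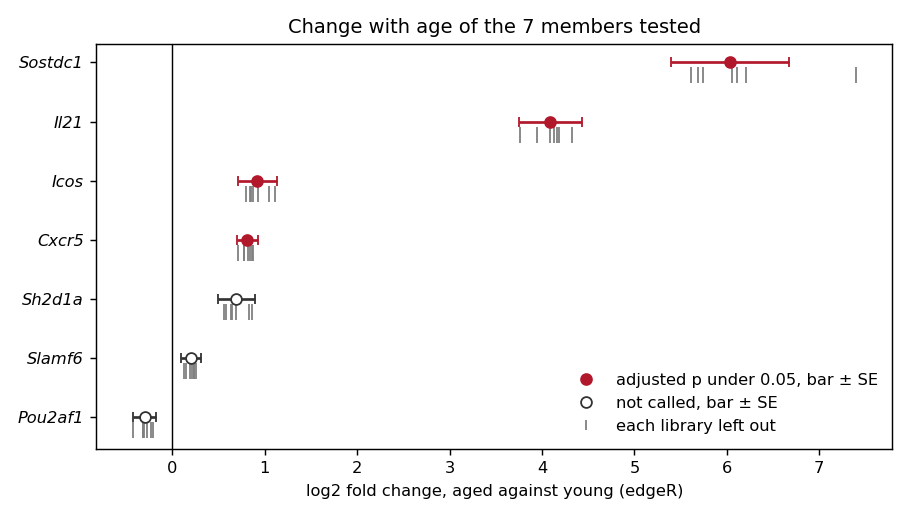
Log2 fold change, aged against young, of the 7 tested genes (horizontal axis), with filled points for called genes, open points for the others, bars of ± 1 SE and grey ticks for the values with each library left out. Sostdc1 at 6.03 and Il21 at 4.09 stand far to the right of the other 5 genes, and the tick of Sostdc1 at 7.40 is the fit without young 4.

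Levels were compared between genes per kilobase of merged exon length. The ranking is of the whole isolate, in which B cell markers summed to 1225 to 2710 CPM over the 7 libraries beside 2270 to 2923 CPM for T cell markers. In aged libraries the order was Icos at 65.4 CPM per kilobase, Pou2af1 at 47.1, Cxcr5 at 33.4, Slamf6 at 21.9, Sh2d1a at 11.3, Sostdc1 at 5.97, Il21 at 1.81, Il4 at 0.679 and Ascl2 at 0.297. The ranges of Icos and Pou2af1 overlapped, as did those of Il4 and Ascl2. In young libraries Pou2af1 was highest at 57.9 and Icos next at 34.6, without overlap. Cxcr5 at 19.1 and Slamf6 at 19.0 did not differ beyond their spread. Over the length of the longest transcript, Slamf6 was above Cxcr5 in young libraries, at 35.9 and 22.3 CPM per kilobase, without overlap. In aged libraries the means on that scale were 41.3 and 39.1, and their ranges overlapped. By merged exon length Sh2d1a stood at 7.01 in young libraries. Il4, Ascl2, Il21 and Sostdc1 followed at 0.346, 0.131, 0.104 and 0.0825 CPM per kilobase, each overlapping the next, and over the longest transcript Il21 (0.177) had a higher mean than Ascl2 (0.133). Sostdc1 was last of the 9 in young and 6th in aged libraries by either length.

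The libraries of an age were not alike for all members. Aged 3 was the highest aged library for 7 of the 9 genes, and aged 2 for Cxcr5 and Ascl2. Young 4 was the highest young library for 5 genes, young 2 for 3 and young 1 for 1. The plasma cell markers were highest in young 2, at 2134 CPM. Of the young libraries, young 2 also had the highest T cell marker sum, 2923 CPM, and the highest Treg marker sum, 2916 CPM. Its B cell marker sum, 1727 CPM, was the lowest of them. The part of these cells in the member levels was not tested.

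The genes whose pattern over the 7 libraries was most like that of a member were taken by the smallest root mean square difference of centred log2 CPM, over 11956 genes. For Il21 they were Il1r2, the decoy receptor of IL-1 (0.282), and Slc24a3 (0.436). For Sostdc1 they were Spp1, which encodes osteopontin (0.83), and Il21 itself (0.921). For Cxcr5 they were Dennd6b (0.0730) and Rccd1 (0.0788), and for Icos the kinase gene Src (0.0970) and Sdcbp2 (0.0996). For Sh2d1a they were Bivm (0.105) and A430093F15Rik (0.116), for Slamf6 Zfp867 (0.0311) and Atp9b (0.0348), and for Pou2af1 Sag (0.0485) and Swap70 (0.0525). These values describe likeness in 7 libraries that differ in age.

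Other genes of the follicular program were counted in 7 lists with 83 tested genes, of which 20 were called higher and 14 lower, or 41.0% called, with a median log2 fold change of 0.11. Over all genes tested in the same fit 16.7% were called, 9.80% higher and 6.94% lower. The 34 calls were 20 without aged 3, where 1262 of all genes were called, and 22 without young 3, where 1270 were. Scaled by library size only, they were 28, with 14 higher and 14 lower, beside 960 higher and 875 lower of all genes. Of 14 transcription factors of follicular T cells, 5 were higher, 3 lower and 6 not called (median 0.30). Tox2, an HMG-box factor of Tfh, rose by 1.28. Maf, which drives Il21 and Il4, rose from 60.3 to 131 CPM (log2 fold change 1.12, adjusted p = 0.00131). Bach2, a repressor of effector genes, fell by 1.19 and Lef1, which supports early Tfh, fell by 1.13. Bcl6, the lineage factor of Tfh and Tfr, was at 34.5 CPM in aged and 27.9 CPM in young libraries (0.31, edgeR, adjusted p = 0.215).

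Of 16 follicular receptors and signals, 5 were higher, 1 lower and 10 not called (median 0.46). The shares over all genes tested, for this list and the next, were 9.80% higher and 6.94% lower. The inhibitory receptor gene Tigit rose by 1.58 and Tnfsf8, which encodes the CD30 ligand, by 1.21, while Il6ra, the IL-6 receptor, fell by 1.04. Il21r, the receptor for IL-21, rose by 0.48 (adjusted p = 0.0185). Pdcd1, which encodes PD-1, had a log2 fold change of 0.69 (adjusted p = 0.134), and Icosl one of 0.44 (adjusted p = 0.119). In the list of IL-4 and IL-21 signalling, 4 of 9 tested genes were higher and none lower (median 0.25). The count was 2 without young 3, and also 2 when scaled by library size only. The 4 were Socs3, a feedback inhibitor of cytokine signals (1.20), Il13ra1 (1.10), Jak3 (0.48) and Il2rg, the common gamma chain (0.39). Il4ra, the receptor for IL-4, had a value of -0.31 (adjusted p = 0.136).

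Around SAP, 1 of 13 SLAM family and signalling genes was higher, Cd84 (0.38), and 2 were lower, Cd244 (-0.74) and the phosphatase gene Ptpn6 (-0.55), with a median of -0.15. These 3 of 13 were 0 without young 4 and 1 without aged 2, young 1 or young 3. Of 7 genes of ICOS signalling and control only Pik3r1, a regulatory subunit of PI3K, was called, and it was lower (-0.73, median of the list -0.04), and it was not called without aged 3. Neither list is read as apart from the 16.7% of all genes tested. Of 15 opponents of the follicular program, 1 was higher, 6 lower and 8 not called (median -0.51). The 7 calls were 2 without aged 3 and 4 without young 1. Klf2, which maintains S1pr1, fell by 1.15. Prdm1, whose product BLIMP1 opposes BCL6, rose by 1.20 (adjusted p = 0.0326). Il2ra, which encodes CD25, was at 380.3 and 579 CPM (-0.61, adjusted p = 0.0589).

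Of 11 Tfr genes, 5 were higher, 1 lower and 5 not called (median 1.20), beside 9.80% higher and 6.94% lower of all genes tested. Prdm1 is among the 5 higher. It also stands in the lists of opponents and of plasma cell markers, so that its rise is counted in each. The 6 calls were 3 without aged 3, young 3 or young 4. Il1r2 rose by 3.87, from 7.35 to 108 CPM, and Il1rn, the IL-1 receptor antagonist, by 1.72. Tgfb1 fell by 0.73. Foxp3 was at 516 CPM in aged and 446 CPM in young libraries (0.21, edgeR, adjusted p = 0.409). Neutrophils also express Il1r2 and Il1rn, 5 of 8 neutrophil markers were higher in aged libraries (median 1.96), and their part in these values was not tested.

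**Figure D4:**
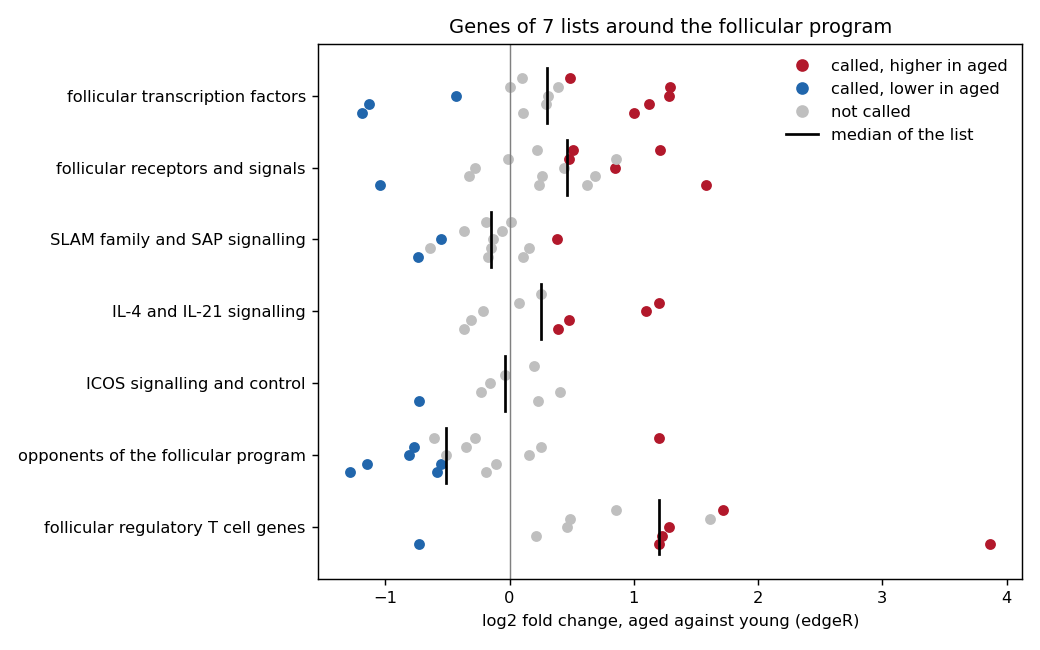
Log2 fold change, aged against young, of each tested gene (horizontal axis) in the 7 lists, with called genes in colour, a bar for the median of each list, and vertical offsets only to separate points. Medians run from -0.51 for opponents of the follicular program to 1.20 for Tfr genes.

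From each list of cell type markers the gene with the most reads over all 7 libraries was taken. This gene was not called for T cells (Lck, 1 higher and 0 lower of 7), Tregs (Ctla4, 1 higher and 1 lower of 8), B cells (Cd79a, 0 higher and 1 lower of 12), germinal centre B cells (Fas, 1 higher and 0 lower of 6) or plasma cells (Jchain, 1 higher and 0 lower of 8). By mean CPM, Trac (533.5) was above Lck (528.4) in aged libraries. In young libraries Cd4 (544.8) was above Lck (517.6), and Il2ra (579.2) above Ctla4 (423.4). The gene with the most reads was also not called for the next lists. NK and innate lymphoid cells (Rora) had 1 higher and 1 lower of 7, CD8 T cells (Cd8a) none of 2, monocytes and macrophages (Lyz2) 1 higher and 3 lower of 8, and dendritic cells (H2-Ab1) 1 higher and 2 lower of 7. By mean CPM in young libraries Klrg1 (34.99) was above Rora (31.81), and Cd8b1 (36.29) above Cd8a (36.03). Basophils and mast cells had 1 higher, Hdc (2.14), and 1 lower, Cpa3 (-1.28), of 4 tested, with a median of -1.66, and Mcpt8 (-2.05) and Prss34 (-3.17) were not called. S100a9 of neutrophils (2.43) was called higher. The germinal centre B cell sum was 56.5 to 78.4 CPM in aged and 46.7 to 53.0 CPM in young libraries, without overlap. Cd4, the gate gene with Il2ra, was at 441 CPM in aged and 545 CPM in young libraries (-0.30, edgeR, adjusted p = 0.117).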

How the data were processed

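RNA-sequencing counts of 3 aged and 4 young libraries were used. The authors deposited raw read counts per gene for each library, and a series table whose signal values are these counts divided by a size factor per library. Gene symbols came from that table. The authors' fold change, standard error and p-value columns were not used. Per the submitters' processing notes the build is mm10. The aligner, counter and annotation are not given in the sources used here. Coordinates and lengths are those of GENCODE M21 on GRCm38, and promoters those of RefSeq on GRCm38.p6. Reads on no single gene, 13.1% to 20.9%, were left out.

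The ages were compared by the quasi-likelihood test of edgeR 4.0.16 (R 4.3.3) after TMM scaling and filterByExpr by group, without covariates and with Benjamini-Hochberg adjustment over 13904 genes and a threshold of 0.05. Alternatives were DESeq2 1.42.0, limma voom (limma 3.58.1), RLE factors, library size only, no filter, a minimum of 10 counts per library, removal of mitochondrial, immunoglobulin and haemoglobin genes, thinned counts, a replicate block and each library left out. Members and lists were chosen with earlier results of these data known. Named genes are the members, the called genes of each pathway list (if over 4, the 2 largest rises and 2 largest falls), 11 genes of interest, the gene of each cell type list with the most reads over all libraries, and the 2 genes most like each tested member. A few genes that this rule names are not reported here. Counts carry no molecular identifiers, so the detection limit of 3 reads covers counting error only.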

Additional observations from a re-analysis of the deposited data

Results flagged for a closer look

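Pou2af1 in young 4 stood apart from the other young libraries. Its level there was 167 CPM against 140 to 142 CPM in young 1 to 3, and the gap to the nearest library was 0.922 of the range of the group, above Dixon's limit for 4 samples. Chance takes a gap past that limit in about 1 in 20 groups, and the 9 genes were each examined in the young group. The B cell markers were also highest in young 4, at 2710 CPM, and their part in this value was not tested.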

How the results depend on the processing

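Each gene kept its direction in the alternatives run for it, 16 for Cxcr5, Sh2d1a, Slamf6, Icos and Pou2af1, 15 for Il21 and Sostdc1, and 13 for Il4 and Ascl2. Il21 and Sostdc1 were called in all 15 alternatives that tested them, Cxcr5 in 15 of 16, Icos in 11 of 16 and Sh2d1a in 8 of 16, and Slamf6 and Pou2af1 in none. For Il4 and Ascl2 only DESeq2 and the fit without a filter could have passed the threshold, and neither did. Replicate numbers did not pair the samples, as same-numbered libraries had correlations of -0.09, -0.29 and -0.14. With the number as a replicate block over replicates 1 to 3, 279 genes were called, with 2 of the 9 genes and 9 of the list genes, and Cxcr5 was at 0.86 (adjusted p = 0.0505) and Icos at 0.82 (adjusted p = 0.137). Leaving out each library gave 1237 genes called without young 4, 1262 without aged 3, 1270 without young 3 and 1315 without young 1, and up to 3058 without aged 1, with 3 to 5 of the 9 genes, and 20 of the list genes without aged 3, 22 without young 3 and up to 37 without young 2. The log2 fold change ranged from 0.56 to 0.86 for Sh2d1a and from 0.80 to 1.11 for Icos. Sh2d1a was called with DESeq2 (0.66), RLE factors (0.68), no filter (0.66), a minimum of 10 counts (0.70), mitochondrial, immunoglobulin and haemoglobin genes left out (0.69) and thinned counts (0.71). The cause was not tested. Over the longest transcript in place of merged exons, levels in aged and young libraries were 3.11 and 0.177 CPM per kilobase for Il21, 39.1 and 22.3 for Cxcr5, 22.6 and 14.1 for Sh2d1a, 41.3 and 35.9 for Slamf6, and 1.38 and 0.702 for Il4, which placed the mean of Slamf6 above that of Cxcr5 in both ages, with overlap in the aged, and that of Il21 above that of Ascl2 in the young. Scaled by library size only, 1835 genes were called, 960 higher and 875 lower. Depth limits Il4 and Ascl2, which had 50 and 26 reads in all 7 libraries.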

Other observations

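The genes within 100 kilobases of a member were counted as well, a list made after the values were seen. Of 40 such genes 24 were tested, 6 were higher and 2 lower in aged libraries, or 33.3% called, beside 16.7% of all genes tested. Beside Il21, Cetn4 (1.24) and Bbs12 (0.72) were higher, while Il2, at a distance of 96.8 kilobases, had 9 reads in aged and 25 in young libraries and was not tested. Gm37039, which lies within the span of Icos but shares no exon base with it, was higher (1.46, adjusted p = 0.0441 with edgeR). Ctla4, 62.1 kilobases from Icos, had a log2 fold change of 0.86 (edgeR, adjusted p = 0.103). Beside Slamf6, its family member Cd84 was higher (0.38) and Vangl2 lower (-1.39). Ispd, the only tested neighbour of Sostdc1, was higher (1.6), and Bcl9l, which shares exon bases with Cxcr5 on the other strand, was lower (-0.77).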
